A study of Mus musculus with 6 samples.

Results

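The nuclear genes for subunits of respiratory complex I were examined in bone marrow cells of mice labelled Fnip1-null and wild type. Members were chosen by name: each gene whose symbol in the array's annotation is Nduf, then a, b, c, s or v, then a number, with assembly factors (Ndufaf) left out. By this rule 34 of 19057 genes with a probe were members, and each was represented by its probe of highest mean signal. The cells had been sorted as B220+CD43+, a gate for early B-lineage cells that the labels call pre-B cells, and total RNA was hybridised to Illumina BeadChip arrays. Of the 6 arrays, 3 were labelled Fnip1-null (Fnip 1 -/-) and 3 wild type (Wt). The labels do not state strain, age or how the Fnip1 allele was changed. Fnip1 encodes folliculin-interacting protein 1, which works with folliculin and the energy sensor AMPK.

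Complex I, NADH:ubiquinone oxidoreductase, is the largest enzyme of the mitochondrial respiratory chain and the main entry point for electrons from NADH. Its N module oxidises NADH, its Q module passes the electrons to ubiquinone, and its membrane arm pumps protons into the intermembrane space. Core subunits carry out catalysis, accessory (supernumerary) subunits surround and stabilise them, and the subunits come from both the nuclear and the mitochondrial genome. Transcription of the nuclear genes is commonly attributed to NRF1, GABP, YY1 and ERR factors with coactivators of the PGC-1 family.

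No complex I subunit gene passed the test in either direction, while all 3 genes of the PGC-1 coactivator family rose in cells labelled Fnip1-null relative to wild type. Of the 34 members, 33 were detected and tested, with a median log2 fold change of 0.08 (arrays labelled Fnip1-null minus arrays labelled wild type) and a range of -0.28 to 0.32. With limma, 0 of 33 had an adjusted p under 0.05, against 13.1% of the 9676 genes tested (7.89% higher and 5.25% lower on arrays labelled Fnip1-null). At an unadjusted p under 0.05 there were 3 members, 2 higher and 1 lower, against 27.3% of all genes tested. The 95% interval of the difference lay within 1.5-fold either way for 32 of the 33, and the exception was Ndufb2. Among all genes tested the share was 69.5%. It was not particular to complex I: all 8 tested subunits of complex III, all 9 of complex IV and all 14 of ATP synthase lay within it. So did 15 of 17 complex I assembly factors, 5 of 7 genes of complex II and its assembly, and 2 of 4 mitochondrially encoded subunits. A missed threshold does not show that levels were equal, and differences smaller than these intervals could not be seen with 3 arrays per group.

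**Figure D1:**
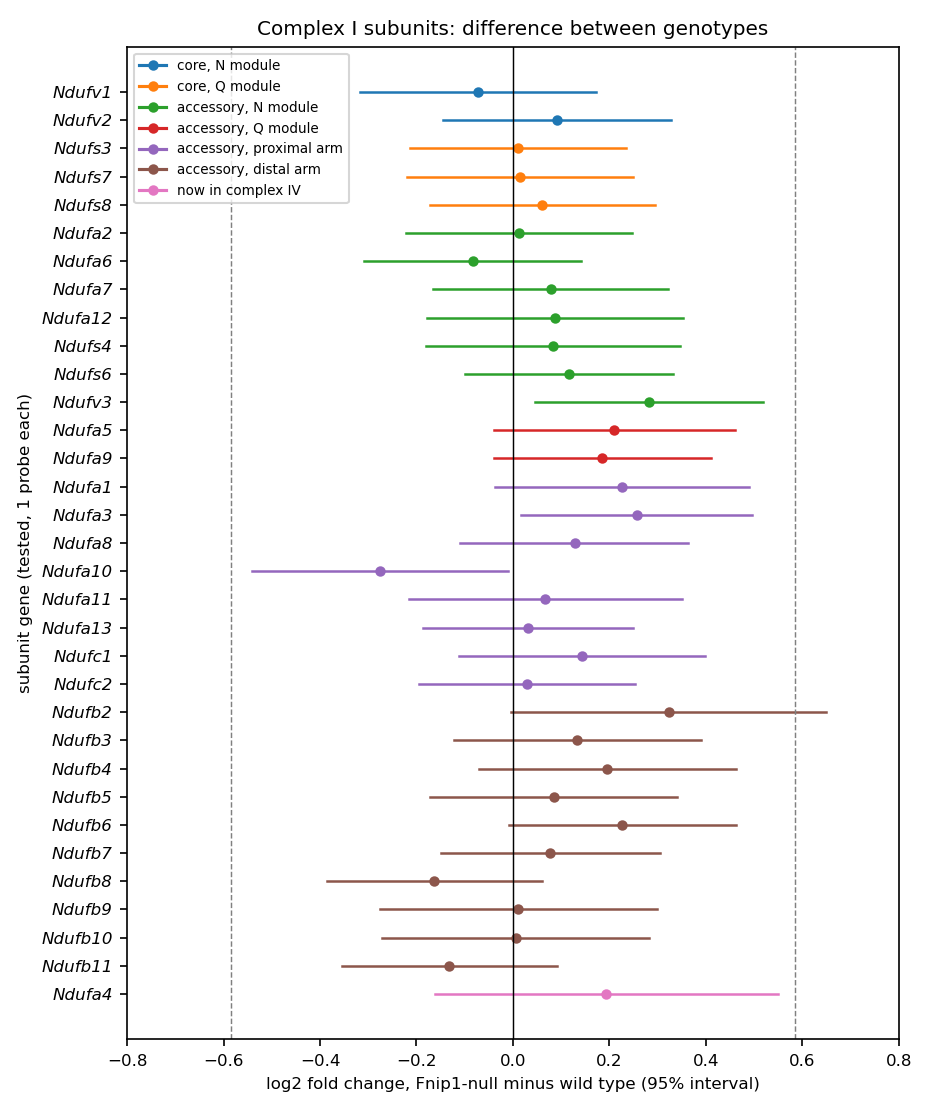
Difference between arrays labelled Fnip1-null and arrays labelled wild type for the 33 tested complex I subunit genes, as log2 fold change (points) with 95% moderated intervals (lines), coloured by module; dashed lines mark 1.5-fold either way. The interval of Ndufb2 reaches past 1.5-fold and the other 32 lie inside it.

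The arrays held 45281 probes, of which between 17442 and 18294 were detected per array, and the median signal was between 40.5 and 44.3. Nothing in the labels says that the 3 samples of a group came from separate animals, so the p-values cover the spread among these samples, part of which may be technical. The letters A, B and C given to the arrays of each group are names only. The gene named in the label went against it. Fnip1 averaged 10.01 ± 0.04 on arrays labelled Fnip1-null and 9.06 ± 0.14 on arrays labelled wild type (normalized log2 signal, SD, n = 3 each, log2 fold change 0.95, limma adjusted p = 0.000665, exact two-sided permutation p = 0.1, the smallest that 3 against 3 allow). Its other tested probes also stood higher, by 0.78 and 0.88 on the log2 scale (limma adjusted p = 0.00118 and 0.00851). The position of the Fnip1 probes relative to the change in the gene is unknown here, and a probe outside a deleted part checks nothing. All directions below are therefore between arrays as labelled. Of 10 early B-lineage markers with a probe 9 were detected on all 6 arrays and Pax5 on none. Array A of each group had low Xist (4.22 labelled Fnip1-null, 4.62 labelled wild type) and high Eif2s3y (9.45 and 9.92), so each group holds 1 array of male and 2 arrays of female RNA. Array A of a group therefore did not share an animal with B and C, and whether B and C shared 1 is not known. In RNA from a bulk sort, fewer cells of a type and less RNA per cell cannot be told apart. Summed raw signals of the marker lists, neither background corrected nor normalized, overlapped between the groups. The brightest probes weigh most in such sums, so a change of a dimmer marker can be hidden. The 10 early B-lineage markers summed to 24680 to 31284 labelled Fnip1-null, against 25504 to 33093 labelled wild type. In the same order, 7 plasmacytoid dendritic markers (Ccr9 detected on no array) summed to 21285 to 24211, against 18280 to 25195. The sums were 5943 to 7974 against 6172 to 10204 for 10 natural killer markers (Gzmb and Ncr1 on none). They were 13176 to 40633 against 10668 to 28840 for 10 neutrophil and granulocyte markers (Mmp8 on none). For 6 monocyte markers they were 6221 to 9903 against 7708 to 10511, and for 6 erythroid markers (Epor on none) 1055 to 3230 against 1806 to 2642. By gene, 7 of 8 tested natural killer markers had a log2 fold change below 0 (median -0.50, 4 at an unadjusted p under 0.05), as had all 6 tested monocyte markers (median -0.47, 3 at an unadjusted p under 0.05), and the median of 9 neutrophil and granulocyte markers was -0.02. Of 9 tested early B-lineage markers 6 had a log2 fold change above 0 (median 0.12), and the 3 that passed the test all fell. These were Rag1 (log2 fold change -2.06), Ebf1 (-0.52) and Cd79b (-0.49). Single markers of other lists passed as well: 1 natural killer (Eomes), 1 neutrophil (Prtn3) and 2 monocyte markers (Ccr2 and Cd14) fell. Of 5 tested T cell markers Cd3e rose and Thy1 fell. The part of cell makeup in the results was not tested.

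The core subunits, which bind the flavin, the iron-sulphur clusters and ubiquinone, did not pass the test. Of 6 core members 5 were tested, and their log2 fold changes lay between -0.07 and 0.09. Ndufv1, the subunit that binds flavin mononucleotide and NADH, had 11.66, 11.81 and 11.92 on arrays labelled Fnip1-null, against 11.87, 11.81 and 11.93 on arrays labelled wild type (normalized log2 signal). Ndufv2, an iron-sulphur subunit of the same module, had 11.42, 11.35 and 11.38 labelled Fnip1-null, against 11.42, 11.21 and 11.24 labelled wild type. The groups overlapped for both genes, and the fold change was 0.95 (95% interval 0.802 to 1.13) for Ndufv1 and 1.07 (0.905 to 1.26) for Ndufv2. Ndufs1, the large iron-sulphur subunit of the N module, was not tested because its single probe was below detection throughout, with 4.30, 4.31 and 4.36 labelled Fnip1-null, against 4.33, 4.30 and 4.28 labelled wild type.

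In the Q module, Ndufs3 had 10.69, 10.81 and 10.73 on arrays labelled Fnip1-null, against 10.72, 10.79 and 10.68 on arrays labelled wild type. Ndufs7, which carries the iron-sulphur cluster next to the ubiquinone site, had 11.44, 11.23 and 11.39 labelled Fnip1-null, against 11.35, 11.31 and 11.35 labelled wild type. Ndufs8, a subunit with further iron-sulphur clusters, had 11.78, 11.69 and 11.83 labelled Fnip1-null, against 11.75, 11.61 and 11.76 labelled wild type. In each of the 3 the groups overlapped, with log2 fold changes of 0.01 (SE 0.10), 0.015 (SE 0.10) and 0.06 (SE 0.10), and the 95% intervals of the fold ended at 1.18, 1.19 and 1.23.

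Among the 7 tested accessory subunits of the N module the median log2 fold change was 0.08 and 0 were called. Ndufv3, a small accessory subunit, had 11.56, 11.44 and 11.33 on arrays labelled Fnip1-null, against 11.18, 11.18 and 11.13 on arrays labelled wild type. All 3 arrays labelled Fnip1-null were above all 3 labelled wild type. The fold change was 1.22 (95% interval 1.03 to 1.43), with an unadjusted p = 0.0243 and an adjusted p = 0.11, the lowest of any member with limma. With normexp background correction that did not use control information and an offset of 50, its adjusted p = 0.0475 (log2 fold change 0.28). Its other tested probes stood at 0.23 and -0.07 on the log2 scale. Ndufs4 and Ndufs6, accessory subunits in which inherited defects cause Leigh syndrome or neonatal lactic acidosis in humans, had log2 fold changes of 0.08 and 0.12 with adjusted p = 0.694 and 0.475. Ndufa6, a subunit of the LYR family, had a log2 fold change of -0.08 without overlap between groups (adjusted p = 0.64). Ndufa2, Ndufa7 and Ndufa12 lay between 0.01 and 0.09 on the same scale.

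Both accessory subunits of the Q module stood above wild type on every array labelled Fnip1-null, as did 18.1% of all genes tested. Neither of them passed the test. Ndufa5 had 10.38, 10.51 and 10.23 labelled Fnip1-null, against 10.20, 10.19 and 10.09 labelled wild type, a log2 difference of 0.21 (SE 0.11, adjusted p = 0.251). Its other tested probe, which is far dimmer, gave -0.02. Ndufa9, which helps hold the Q module to the membrane arm, had 11.60, 11.60 and 11.70 labelled Fnip1-null, against 11.52, 11.42 and 11.42 labelled wild type (log2 fold change 0.185, SE 0.10, adjusted p = 0.264).

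In the proximal membrane arm 8 accessory subunits were tested, with a median of 0.10 on the log2 scale. Ndufa3 had 11.87, 11.89 and 11.69 on arrays labelled Fnip1-null, against 11.50, 11.63 and 11.54 on arrays labelled wild type. The groups did not overlap, and the fold change was 1.19 (95% interval 1.01 to 1.41, unadjusted p = 0.0384, adjusted p = 0.148). Its other tested probe gave 0.145 on the log2 scale, with overlap between the groups (adjusted p = 0.484). Ndufa1, an X-linked subunit needed for assembly, had 11.83, 12.10 and 11.77 labelled Fnip1-null, against 11.72, 11.65 and 11.66 labelled wild type. The groups of Ndufa1 did not overlap, with the array B labelled Fnip1-null highest (log2 fold change 0.23, SE 0.12, adjusted p = 0.242). Ndufa10, a subunit with a nucleoside kinase fold, ran the other way, with 11.20, 11.16 and 11.34 labelled Fnip1-null, against 11.68, 11.48 and 11.37 labelled wild type. It was lower on all 3 arrays labelled Fnip1-null, by 0.28 on the log2 scale (fold 0.826, 95% interval 0.687 to 0.993, unadjusted p = 0.0432, adjusted p = 0.16). Ndufa13, also known as Grim19 for a role in interferon and retinoid induced cell death, had a log2 fold change of 0.03 (95% interval -0.19 to 0.25). Ndufa8, Ndufa11, Ndufc1 and Ndufc2 lay between 0.03 and 0.14. Ndufb1 and Ndufs5 were not analysed here.

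The 10 tested subunits of the distal membrane arm spanned -0.16 to 0.32 on the log2 scale. Ndufb2 had the largest difference of all members, with 7.06, 7.62 and 7.4 on arrays labelled Fnip1-null, against 7.10, 6.99 and 7.01 on arrays labelled wild type. Array A labelled Fnip1-null lay within the wild-type range and B and C above it, and the fold change was 1.25 (95% interval 0.997 to 1.57, adjusted p = 0.181). Without array A labelled Fnip1-null, Ndufb2 passed the test (log2 fold change 0.47, adjusted p = 0.0443). That array was the only male array of its label, so sex was no longer balanced in that fit. Ndufb6 had 11.35, 11.16 and 11.14 labelled Fnip1-null, against 11, 10.98 and 11 labelled wild type, without overlap (log2 fold change 0.23, SE 0.10, adjusted p = 0.19). Its other tested probe gave 0.05. Ndufb4 had 4.94, 5.24 and 5.25 labelled Fnip1-null, against 5.01, 4.94 and 4.88 labelled wild type, a dim probe with overlap (log2 fold change 0.20, SE 0.12, adjusted p = 0.32). Ndufb8, a subunit often used as a marker of assembled complex I on blots, was lower on all 3 arrays labelled Fnip1-null by 0.16 on the log2 scale, without passing the test (adjusted p = 0.32). Ndufb11, also X-linked, had probes of opposite sign, -0.13 and 0.21. Ndufb3, Ndufb5, Ndufb7, Ndufb9 and Ndufb10 lay between 0.006 and 0.13. Ndufa4 keeps a complex I name but is now assigned to complex IV. It had the largest replicate spread of the members, with 12.02, 12.36 and 11.72 labelled Fnip1-null, against 11.91, 11.86 and 11.75 labelled wild type (adjusted p = 0.469), and without it the median over the other 32 was 0.08.

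Across the members the differences were small and mostly of positive sign. The log2 fold change was above 0 for 28 of 33 (84.8%), compared with 52.2% of all genes tested, whose median was 0.01. Groups did not overlap for 12 members: the Fnip1-null labels lay above in 8 and below in 4, against 18.1% higher and 14.9% lower among all genes tested. The arrays of a group did not all stand together. Setting each member against its own mean over the 6 arrays, 21, 20 and 20 of the 33 were above it on arrays A, B and C labelled Fnip1-null, against 20, 8 and 5 on arrays A, B and C labelled wild type. Array A labelled wild type thus stood with the arrays labelled Fnip1-null in this count. It was the only male array of its label, and leaving it out gave a members' median of 0.125. Leaving out B or C of the same label gave 0.054 or 0.055. The median spread of a member within its group was 0.09 on the log2 scale (pooled SD), compared with 0.15 over all genes tested.

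**Figure D2:**
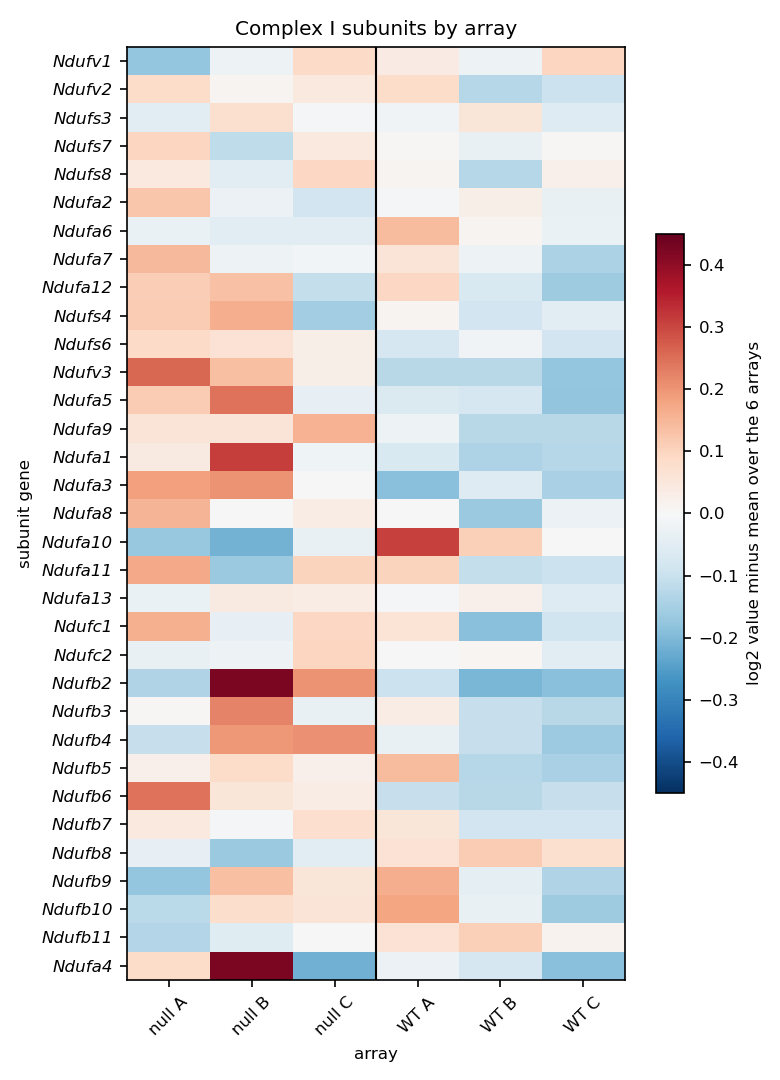
Normalized log2 signal of the 33 tested members on each array, minus the member's mean over the 6 arrays (red higher, blue lower), with arrays labelled Fnip1-null left of the line and arrays labelled wild type right of it. Arrays B and C labelled wild type are mostly blue (8 and 5 members above their own mean), whereas array A labelled wild type (20 above) is mixed.

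Probes for 5 mitochondrially encoded core subunits were present, and 4 of them were detected. ND1 and ND4, membrane arm subunits, had log2 fold changes of 0.10 (SE 0.12) and 0.07 (SE 0.11). ND5, the outermost proton-pumping subunit, had 6.04, 5.93 and 5.95 on arrays labelled Fnip1-null, against 6.47, 6.46 and 6.07 on arrays labelled wild type, lower without overlap but not past the threshold (log2 fold change -0.36, adjusted p = 0.1). ND4L pointed the other way at 0.31 (adjusted p = 0.181), with overlap. The transcripts come from shared precursors, and the labels do not state the probes' strand.

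Assembly factors, which build the enzyme but are absent from it, showed no call among 17 tested of 19 with a probe, at a median of -0.03 and with 7 of 17 above 0. Tmem126b, a factor of the membrane arm assembly complex, had 7.32, 7.52 and 7.55 labelled Fnip1-null, against 7.08, 7.10 and 7.32 labelled wild type (log2 fold change 0.30, adjusted p = 0.125). Lyrm2, an LYR protein tied to the N module, had 8.12, 8.43 and 8.26 labelled Fnip1-null, against 8.70, 8.61 and 8.58 labelled wild type (log2 fold change -0.36, adjusted p = 0.0668), and its other tested probe gave -0.12. Lyrm2 passed in 3 alternative settings. Ndufaf4 and Ndufaf2, factors of intermediate and late assembly, stood at 0.19 and 0.25 (adjusted p = 0.343 and 0.391). Ndufab1, the mitochondrial acyl carrier protein that is also a subunit but falls outside the naming rule, had a log2 fold change of 0.14 (adjusted p = 0.431), and its 3 other tested probes gave 0.23, 0.115 and -0.24.

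The other chain complexes gave similar small values, listed for comparison and without a test of the lists against each other. The median log2 fold change was 0.01 over 8 subunits of complex III, 0.07 over 9 of complex IV and 0.08 over 14 of ATP synthase, each with 0 calls by limma and 0 at an unadjusted p under 0.05. Positive signs were found for 4 of 8, 8 of 9 and 11 of 14. In a list of complex II subunits and their assembly factors 1 of 7 passed: Sdhaf2, which inserts flavin into succinate dehydrogenase, had 8.86, 9.08 and 8.98 labelled Fnip1-null, against 9.46, 9.45 and 9.38 labelled wild type, and fell by 0.46 (SE 0.10, adjusted p = 0.0196). It lost the call in 4 of 6 fits with 1 array left out, those without array A or C labelled Fnip1-null (adjusted p = 0.0552 and 0.0538) and without array A or B labelled wild type (0.0594 and 0.0683). A further list held 11 genes linked to NAD or ubiquinone. Among them was Prodh, the proline dehydrogenase that feeds electrons to the chain beside complex I. Prodh had 10.88, 11.09 and 10.87 labelled Fnip1-null, against 8.28, 8.39 and 8.33 labelled wild type. It rose by 2.62 (SE 0.11, adjusted p = 2.38e-06) and was the only one of the 11 past the threshold.

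**Figure D3:**
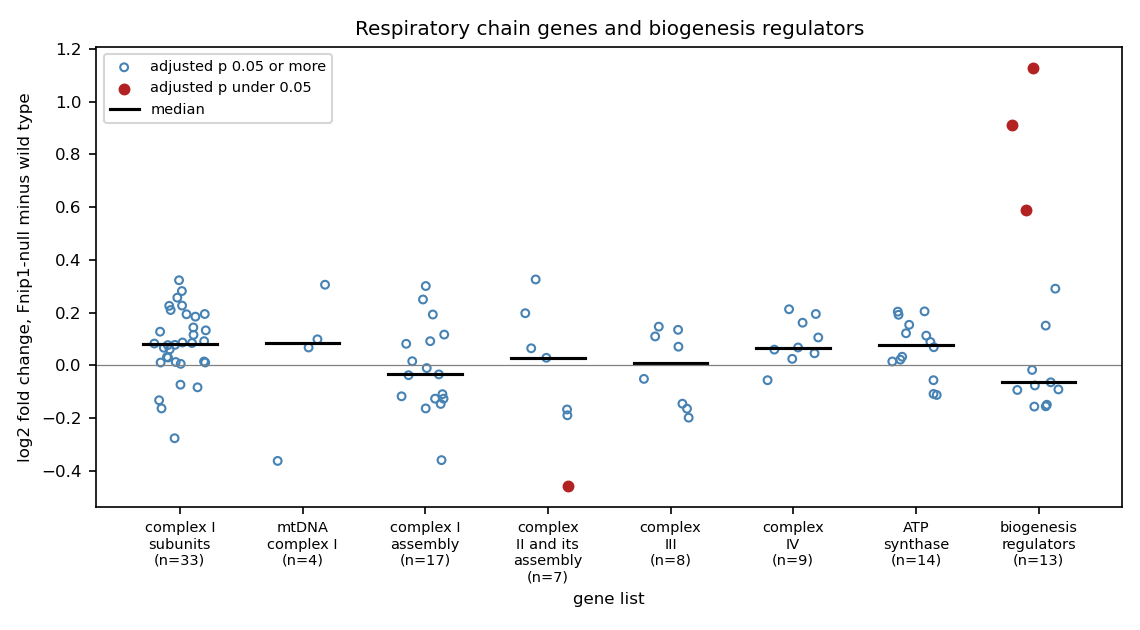
Log2 fold change (arrays labelled Fnip1-null minus arrays labelled wild type) of tested genes in 8 lists, 1 point per gene with sideways scatter for visibility; filled points have a limma adjusted p under 0.05 and bars are medians. No complex I subunit is filled, whereas 1 complex II assembly factor (Sdhaf2, -0.46) and 3 biogenesis regulators are. The highest of these, Ppargc1a, is drawn at its fitted value although 1 of 3 arrays labelled wild type detected it.

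Upstream of these genes, the list of mitochondrial biogenesis regulators split by role. All 3 PGC-1 coactivators rose, and none of the 10 other tested regulators passed. Ppargc1a, which encodes PGC-1alpha, had 6.03, 5.56 and 5.80 on arrays labelled Fnip1-null, against 4.83, 4.66 and 4.52 on arrays labelled wild type, of which only 1 detected it. With the background correction used here it was at least 2.02-fold higher (limma adjusted p = 0.00118). That bound depends on the correction: the log2 fold change of Ppargc1a was 0.53 with normexp and an offset of 50 and 0.58 with no correction, called in both (adjusted p = 0.00457 and 0.00356). Ppargc1b, for PGC-1beta, had 7.2, 6.81 and 6.93 labelled Fnip1-null, against 6.28, 5.92 and 6 labelled wild type, and rose by 0.91 (SE 0.14, adjusted p = 0.00325). Pprc1, for the related coactivator PRC, had 8.11, 7.72 and 7.92 labelled Fnip1-null, against 7.29, 7.42 and 7.27 labelled wild type, and rose by 0.59 (SE 0.12, adjusted p = 0.0141). Pprc1 lost this call with the authors' values and a replicate block. For each of the 3 all arrays labelled Fnip1-null were above all labelled wild type. The DNA-binding factors Nrf1, Gabpa, Esrra and Tfam did not pass. Nrf1 stood at -0.16 (adjusted p = 0.416), Gabpa at -0.09 (0.707) and Esrra, which encodes ERRalpha, at -0.06 (0.721). Tfam, which packages mitochondrial DNA and takes part in its transcription, stood at -0.15 (0.429). Each of the 4 had a second tested probe, at 0.19 for Nrf1, 0.32 for Gabpa, -0.28 for Esrra (without overlap) and -0.23 for Tfam, with adjusted p = 0.496, 0.225, 0.109 and 0.275. The probe for Yy1 was detected on 0 of 6 arrays, and Tfeb and Mitf were below the detection filter, so these 3 were not tested. The list was chosen with earlier results of these data known and lends no independent support to its direction.

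**Figure D4:**
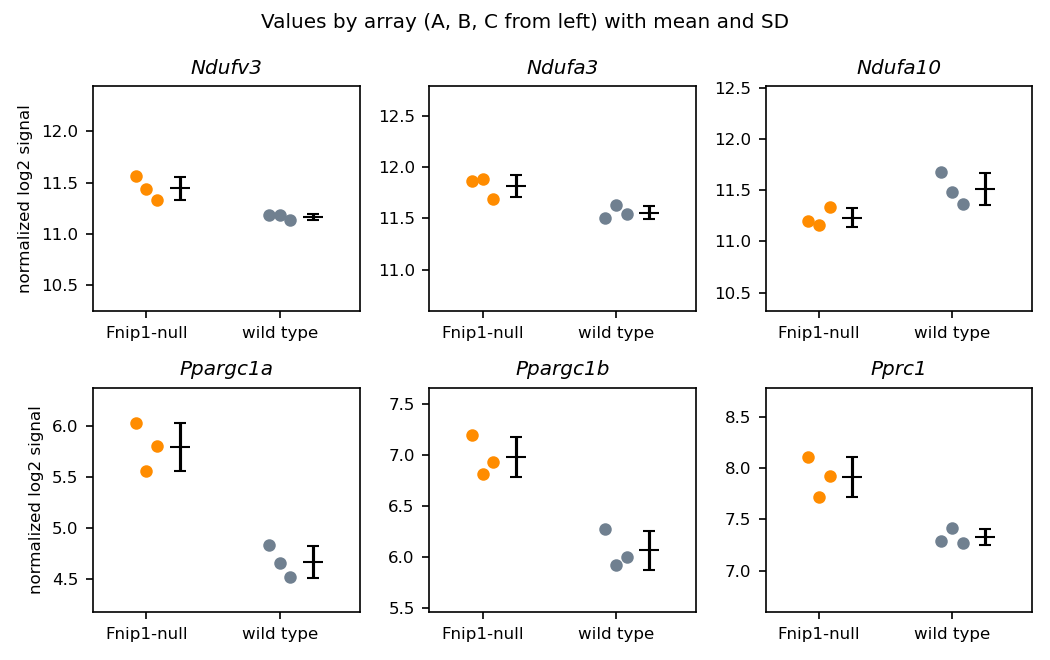
Normalized log2 signal by array for the 3 subunits with an unadjusted p under 0.05 (top row) and the 3 PGC-1 coactivators (bottom row), with mean and SD (n = 3); every panel spans the same log2 range. Ppargc1b and Pprc1 differ by 0.91 and 0.59 on the log2 scale, and the 3 subunits by 0.28 or less. Ppargc1a was detected on 1 of the 3 arrays labelled wild type, so its distance between groups is no exact value.

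Promoters of the members were searched for the letters these factors are known to bind. RefSeq windows (GRCm38.p6, 250 bases before to 50 after a gene's start) were matched for 31 of the 34 members, in 33 windows, and both strands were read. The YY1 motif AAGATGGCG was in 5 of 33 windows, compared with 1.4% of all 32851 windows. The GABP motif CCGGAAG was in 4 of 33, compared with 8.86%. The NRF1 core GCATGCGC was in 3 of 33, compared with 2.71%, and the full NRF1 motif, this core with GC before it, was in 1 of 33, compared with 0.971%. The ERR motif CAAGGTCA was in 0 of 33, compared with 1.56%. The motif TCACGTGA is bound by TFE3 and TFEB, which folliculin regulates. It was in both windows of Ndufa7, which overlap and share the same site, and in no other member's window. Of all windows 0.974% held it. A match describes letters in this window, not a bound site.

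The windows below show 1 member for each motif that was found, 5′ to 3′ on the gene's strand, with motif letters in capitals and serve to show what these promoters hold. They come from RefSeq, and lie at chr17:33824322-33824621, plus strand (Ndufa7, TFE3 and TFEB motif starting 73 bases before the start), chr17:56717512-56717811, plus strand (Ndufa11, NRF1 motif 60 bases before), chr2:90904672-90904971, minus strand (Ndufs3, GABP motifs 27 bases before and 1 base after) and chr6:126849095-126849394, minus strand (Ndufa9, YY1 motif 29 bases after).
Ndufa7: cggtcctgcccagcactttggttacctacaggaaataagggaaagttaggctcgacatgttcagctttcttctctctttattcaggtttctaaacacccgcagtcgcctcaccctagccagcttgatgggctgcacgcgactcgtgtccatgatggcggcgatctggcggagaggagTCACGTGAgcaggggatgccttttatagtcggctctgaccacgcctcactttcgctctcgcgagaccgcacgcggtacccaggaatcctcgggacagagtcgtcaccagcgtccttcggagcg
Ndufa11: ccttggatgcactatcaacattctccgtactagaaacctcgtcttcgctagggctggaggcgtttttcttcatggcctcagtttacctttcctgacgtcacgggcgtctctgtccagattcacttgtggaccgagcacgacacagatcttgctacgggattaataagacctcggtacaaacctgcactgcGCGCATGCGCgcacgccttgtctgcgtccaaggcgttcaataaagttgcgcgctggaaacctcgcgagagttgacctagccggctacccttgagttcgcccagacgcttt
Ndufs3: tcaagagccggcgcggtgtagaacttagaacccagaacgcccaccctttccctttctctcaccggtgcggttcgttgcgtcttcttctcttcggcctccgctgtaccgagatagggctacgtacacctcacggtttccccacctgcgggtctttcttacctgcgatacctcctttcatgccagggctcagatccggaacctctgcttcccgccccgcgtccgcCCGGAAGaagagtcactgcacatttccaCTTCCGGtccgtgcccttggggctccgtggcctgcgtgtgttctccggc
Ndufa9: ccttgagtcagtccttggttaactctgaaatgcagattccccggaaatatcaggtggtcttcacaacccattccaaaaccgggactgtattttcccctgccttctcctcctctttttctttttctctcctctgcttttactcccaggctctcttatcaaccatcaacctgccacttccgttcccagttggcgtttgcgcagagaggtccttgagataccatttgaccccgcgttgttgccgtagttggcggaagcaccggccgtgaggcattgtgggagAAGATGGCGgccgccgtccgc
The members with these windows had log2 fold changes of 0.08 (Ndufa7, adjusted p = 0.691), 0.07 (Ndufa11, 0.775), 0.01 (Ndufs3, 0.96) and 0.185 (Ndufa9, 0.264). The 3 subunits with an unadjusted p under 0.05, Ndufv3, Ndufa3 and Ndufa10, held none of these motifs in their windows.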

How the data were processed

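Total RNA of 6 samples was measured on Illumina BeadChip arrays. The table deposited by the authors gives a signal intensity, with no normalization recorded, and a detection p-value per probe and array, per the file headers. A second deposited table holds processed values taken as log2 from their range, with background correction and log base not stated. The submitters' processing notes name affy without a version. Scanner columns carry the genotype but no replicate number, and columns labelled Fnip1-null also carry words of unstated meaning.

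Intensities were corrected with neqc (limma 3.58.1, R 4.3.3; normexp with background from detection p-values, offset 16, quantile normalization, log2). The 18172 probes with detection p under 0.05 on at least 3 of 6 arrays were tested with lmFit and eBayes (9.17 degrees of freedom) and adjusted by Benjamini-Hochberg over all of them; a call is an adjusted p under 0.05, also in every sentence that gives an adjusted p. Genes were named through the platform annotation (34885 of 45281 probes had 1 symbol, 18 several, 10378 none) and stand for their probe of highest mean signal. Ppargc1a, undetected on some arrays, has a lower bound on the fold between its group means. The bound was set against the lowest detected signal of each array or its own signal if that was brighter. Core members, the 8 largest differences, the 4 lowest p-values and undetected members are given by array, and up to 4 members of lowest p or called from other lists. The members and lists were chosen with earlier results of these data known. The fit was tested on simulated data. Alternatives were background correction, normalization, detection filter, variance model, probe choice, the authors' table with and without a replicate block, and each array left out. In the authors' table same-numbered samples deviated together at r = 0.17, 0 and 0.23. Numbers 1 and 3, but not 2, correlated best with their own number in the other group, so pairing was not settled. The main fit did not take the numbers as pairs, since the scanner columns do not carry them. The number of arrays limits the precision.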

Additional observations from a re-analysis of the deposited data

How the results depend on the processing

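The count of called subunits was 0 with the main settings and 0 in 15 of 17 alternatives (limma), but 1 higher with normexp and an offset of 50 (Ndufv3) and between 0 and 1 higher with 1 array left out (Ndufb2, without array A labelled Fnip1-null); none was called lower in any of them. At an unadjusted p under 0.05 the alternatives gave between 0 and 10 members. Leaving out array A of a label took out its only male array. With 1 array left out the members' median ran from 0.054 to 0.125, and genes called over the whole table from 432 to 547 higher and from 304 to 393 lower (both lowest without array B labelled Fnip1-null), against 763 and 508 with all arrays. With the authors' values and a replicate block 377 genes were called higher and 252 lower, and 0 subunits; Pprc1 (0.64, adjusted p = 0.0812) and Sdhaf2 (-0.47, adjusted p = 0.0834) lost their calls, and arrays numbered 1 and 3, but not 2, correlated best with their own number in the other group. Without the block the same values gave 0 subunits. Assembly factors had 1 call (Lyrm2) with normexp and an offset of 50, with no background correction and with a trended, robust variance, fits of which the assembly count and the values of Ppargc1a, Ppargc1b, Pprc1, Sdhaf2 and Prodh were added after seeing the data. Ppargc1a was 0.53 on the log2 scale with normexp and an offset of 50, 0.58 with no background correction and 2.22 in the authors' values, called in each; it could not be tested with detection required on all 6 arrays.

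Members near 0 changed sign. With median scaling Ndufa13 was -0.038, Ndufa2 -0.009, Ndufs3 -0.014 and Ndufaf1 0.011, and with cyclic loess Ndufaf1 was 0.006. Averaged over all tested probes Ndufb10 was -0.11 and Ndufb11 0.041. With 1 array left out Ndufa11 ran from -0.001 to 0.169, Ndufa2 from -0.049 to 0.056, Ndufs7 from -0.030 to 0.076, Ndufs3 from -0.023 to 0.040, Ndufb9 from -0.055 to 0.104, Ndufb10 from -0.074 to 0.099, Ndufc2 from -0.013 to 0.054, Ndufaf1 from -0.109 to 0.088, Ndufaf8 from -0.042 to 0.061, Timmdc1 from -0.200 to 0.087 and Tmem70 from -0.156 to 0.035. The cause of these changes was not tested. Of 560 subunit values under the alternatives 537 kept their direction and side of the threshold.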

Other observations

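Other probes of the members add to the spread of the values. Of 47 tested probes for the members 0 were called and 35 had a positive log2 fold change. In 11 members with more than 1 tested probe, the brightest probe had the largest absolute difference in 9, and the probes differed in sign in 6. The 4 tested probes of Ndufs4 spanned -0.03 to 0.08.

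A dimmer probe of Tmem186, a complex I assembly factor, was called where its brightest was not. It had 5.70, 5.55 and 5.44 on arrays labelled Fnip1-null, against 5.17, 4.86 and 5.03 on arrays labelled wild type (log2 fold change 0.55, SE 0.12, limma adjusted p = 0.0181), whereas the brightest gave 0.08 (adjusted p = 0.669). Nnt, the transhydrogenase that uses NADH to make NADPH, had 5.90, 6.18 and 5.90 labelled Fnip1-null, against 5.64, 5.72 and 5.83 labelled wild type. The groups did not overlap (log2 fold change 0.26, adjusted p = 0.178), and the other tested probes of Nnt gave -0.165 and 0.19. Polrmt, the mitochondrial RNA polymerase, had 10.59, 10.59 and 10.97 labelled Fnip1-null, against 10.29, 10.39 and 10.59 labelled wild type (log2 fold change 0.29, adjusted p = 0.204).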
